A study of Mus musculus with 8 samples.

Results

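Genes that carry the TGF-beta signal through the SMAD proteins were followed in multipotent progenitors (MPPs) with and without the NUP98-HOXA10hd fusion (NA). The 10 genes were Tgfb1, Tgfbr1, Tgfbr2, Smad2, Smad3, Smad4, Smad7, Ski, Skil and Tgif1, taken by name as genes of the pathway, out of 37980 gene rows in the expression table. All 10 were found in the table, and 9 of them passed the filter on low values and entered the test, Tgfb1 being the exception.

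RNA was sequenced from MPPs of C57BL/6 mouse bone marrow, sorted as Lin-CD48-ckit+Sca1+CD135+CD150- cells, with 4 libraries from NA mice and 4 from wild-type (WT) mice. NUP98-HOXA10hd is an engineered fusion in which a stretch of a nuclear pore protein is attached to the HOXA10 homeodomain, and in the NA mice (NA LSL/+; Vav-Cre) the fusion is expressed from the Rosa26 locus after a Vav-driven Cre, active across blood cells, removes a stop cassette. The WT mice were age-matched CD45.2 animals, for which the sources used here name neither Cre nor fusion, and no age is given for either group. Each library was made from 1000 sorted cells, whose polyA RNA was copied to cDNA and amplified, and the libraries are called NA1 to NA4 and WT1 to WT4 after their titles.

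Values are normalised read counts, that is, estimated reads per gene divided by 1 size factor per library. The libraries held between 3876906 and 4916990 estimated reads, with NA4, WT2 and WT3 the shallowest. Whether the 4 libraries of a group came from separate mice is not stated, so p-values measure the spread between these libraries, which may be technical. WT4 lay nearer to a weighted sum of WT1 to WT3 than an independent library could (excess variance 0.00201, against a least value of 0.00682 for an independent library over 6254 genes), and NA4 lay at that limit (0.00862 against 0.00856 over 6363 genes). Results are therefore also given without NA4 and WT4. Xist ranged from 869 to 1290.0 normalised counts in WT and from 0.94 to 2.80 in NA, whereas the Y-linked Eif2s3y ranged from 516 to 666 in NA and from 0 to 0.888 in WT. The labels give no sex, and the genotype and the sex of the donor mice cannot be told apart here. Of the genes joined in the fusion, Hoxa10 ranged from 298 to 371 in NA and from 129.6 to 149 in WT, whereas Nup98 overlapped, from 71.4 to 98.0 in NA and from 59.5 to 88.3 in WT. Whether reads of the fusion are counted in either row was not tested. Of the genes behind the sorting gate, Kit, Flt3 (CD135) and Ly6a (Sca1) were well expressed in both groups, with group means of 1362 and 1197 for Kit, 1442 and 1374 for Flt3, and 1277 and 1548 for Ly6a in NA and WT.

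TGF-beta is secreted in a latent form and, once released, binds a type II receptor serine/threonine kinase that recruits and activates a type I receptor. The activated type I receptor phosphorylates the receptor-regulated SMAD2 and SMAD3, which bind the common partner SMAD4 and enter the nucleus to change transcription. SMAD7 is an inhibitory SMAD induced by the pathway, whereas SKI, SKIL (SnoN) and TGIF1 are corepressors that restrain the SMAD complexes at their targets, and in the haematopoietic system TGF-beta is best known for holding stem cells in quiescence.

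Smad4, Skil and Tgfbr1 were higher in NA MPPs than in WT MPPs, by 3.09-fold, 4.11-fold and 1.54-fold in group means of 4 libraries. No member was called lower. The ligand Tgfb1 was close to 0 in both groups, and the receptor-regulated Smad2 and Smad3, the inhibitory Smad7 and the corepressor Tgif1 did not pass the test, nor did Tgfbr2 and Ski. By limma on log2(normalised count + 1), with Benjamini-Hochberg adjustment over 11451 genes and a threshold of 0.05, 3 of the 9 tested members were thus higher and 0 lower. At an unadjusted p below 0.05, 4 members were higher and 0 lower, beside 16.9% of all tested genes higher and 15.6% lower (32.5% in either direction). Of all tested genes, 17.9% were called in either direction, 10.1% as higher and 7.87% as lower. The median log2 change of the 9 members was 0.18, against -0.01 over all genes tested. In bulk RNA of sorted cells, a change in the mix of cells captured and a change in RNA per cell cannot be told apart for any of these genes.

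**Figure D1:**
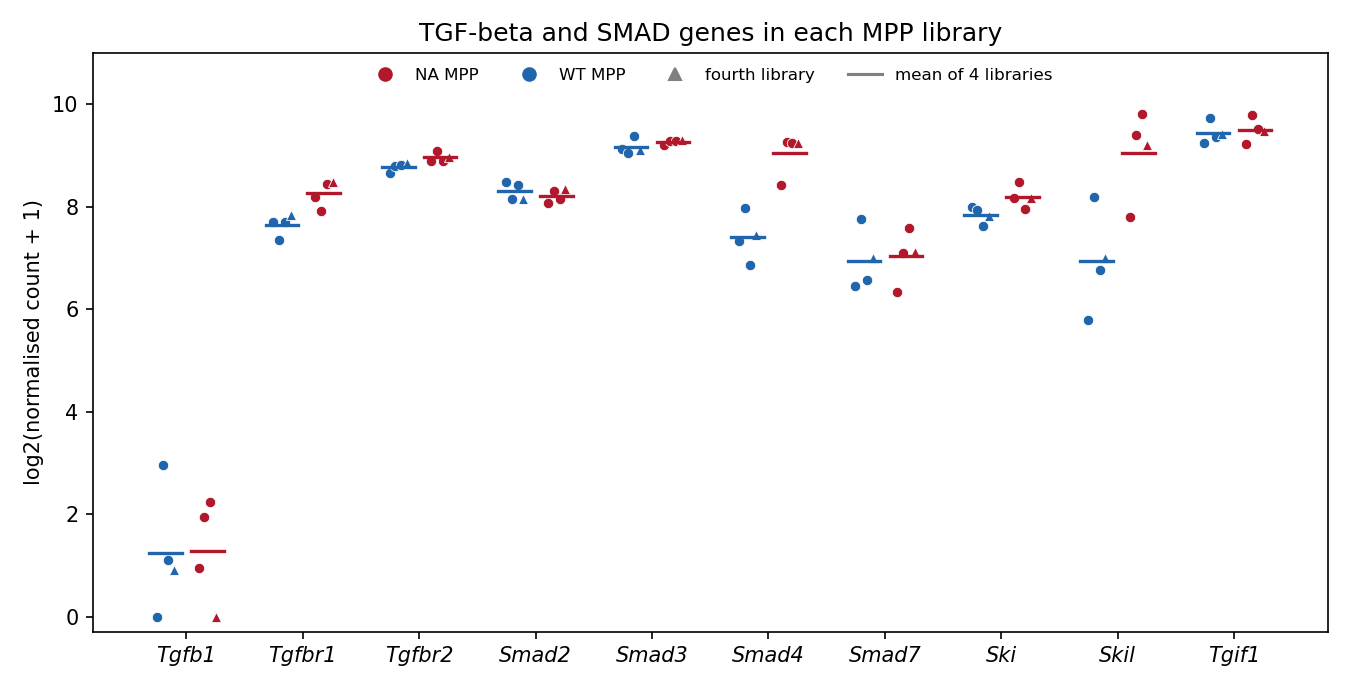
Normalised counts of the 10 TGF-beta and SMAD genes in each MPP library, as log2(normalised count + 1) on the vertical axis, with 1 point per library (red NA, blue WT, triangles NA4 and WT4) and lines at the mean of these log2 values over 4 libraries. Smad4, Tgfbr1 and, by a small margin, the uncalled Tgfbr2 separate fully between the groups, Skil overlaps at WT2 and NA1, and Tgfb1 lies near 0 throughout.

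The ligand Tgfb1 (ENSMUSG00000002603), the main TGF-beta of blood cells, lies on the plus strand at chr7:25687002-25705077 (GRCm38). Its normalised counts were 0.934, 2.82, 3.69 and 0 in NA1 to NA4 and 0, 6.80, 1.14 and 0.888 in WT1 to WT4. These correspond to 8 estimated reads in each group summed over 4 libraries, and no fold is given at this depth. The level was 1.86 ± 1.69 in NA and 2.21 ± 3.10 in WT (SD, n = 4). The other ligands Tgfb2 and Tgfb3 also remained under the minimum of 10, with highest values of 5.69 and 7.52 in any library.

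The type I receptor gene Tgfbr1 (ENSMUSG00000007613; chr4:47353222-47414931, plus strand, GRCm38) read 292, 242, 345 and 358 in NA1 to NA4, and 208, 162, 207 and 228 in WT1 to WT4. Every NA library was above every WT library, and the nearest values were NA2 and WT4. The group means were 309 ± 53.3 and 201 ± 28.0 (SD, n = 4), a log2 change of 0.61 with a standard error of 0.15, a 95% confidence interval of 0.28 to 0.94 and an adjusted p of 0.0143 (limma). The call was lost without NA4 (log2 change 0.54, adjusted p 0.0635) and without NA4 and WT4 (0.60, adjusted p 0.0968). It was also lost once a smoothed trend with transcript GC content was subtracted from the values of each library (0.46, adjusted p 0.0543).

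The type II receptor gene Tgfbr2 (ENSMUSG00000032440; chr9:116084293-116175360, minus strand, GRCm38) read 476, 543, 475 and 499.6 in NA1 to NA4, and 401, 443, 447 and 463 in WT1 to WT4. The groups again did not overlap, with WT4 just under NA3. The difference was small, from 438.5 ± 26.2 in WT to 498 ± 32.1 in NA (SD, n = 4), a ratio of 1.14. Its log2 change of 0.18 (95% interval -0.03 to 0.39) did not pass the test, with an adjusted p of 0.210 (limma). Whether the change of Tgfbr1 differed from that of Tgfbr2 was not tested.

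Shown here are the promoters of both receptor genes, whose products are partners in a receptor complex. Tgfbr1 was called and Tgfbr2 was not, but a difference between their changes was not tested. Each line gives 250 bases before to 50 bases after the RefSeq start on GRCm38.p6, 5′ to 3′ on the gene's own strand, with the SMAD box (CAGAC, searched on both strands) in capitals. The Tgfbr1 window is chr4:47352972-47353271 (plus strand, the upstream start of 2 in the RefSeq table) and the Tgfbr2 window is chr9:116175314-116175613 (minus strand).
Tgfbr1: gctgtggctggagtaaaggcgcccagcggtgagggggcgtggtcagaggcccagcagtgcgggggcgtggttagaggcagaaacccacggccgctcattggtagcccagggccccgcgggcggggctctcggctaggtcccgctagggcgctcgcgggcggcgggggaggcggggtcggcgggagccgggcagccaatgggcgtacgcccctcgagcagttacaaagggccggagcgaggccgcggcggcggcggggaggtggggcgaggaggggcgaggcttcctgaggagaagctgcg
Tgfbr2: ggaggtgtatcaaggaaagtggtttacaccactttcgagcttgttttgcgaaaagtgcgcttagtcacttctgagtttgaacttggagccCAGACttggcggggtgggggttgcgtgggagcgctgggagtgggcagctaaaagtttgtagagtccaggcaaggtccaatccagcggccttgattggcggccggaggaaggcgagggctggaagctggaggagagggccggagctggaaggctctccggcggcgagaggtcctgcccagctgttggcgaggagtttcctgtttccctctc
The Tgfbr1 window held no SMAD box and had a GC content of 74.7%, whereas the Tgfbr2 window held 1 SMAD box at -160 from the start and had a GC content of 59.0%. These 5 letters on either strand occur in 49.6% of 32851 RefSeq promoters of that length, so the match is a description only. The second Tgfbr1 start, at chr4:47385966-47386265, held 1 SMAD box at -203. RefSeq windows were matched for 6 members, 11 windows in all, namely Tgfb1, Tgfbr1, Tgfbr2, Smad3, Ski and Tgif1. The windows of Tgfb1, Smad3 and Ski held no SMAD box, and the 5 Tgif1 windows held between 0 and 2. None of the 11 windows held the AP-1 letters TGANTCA, present in 7.81% of promoters, or the CRE half-site TGACGT on either strand, present in 7.51%.

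Of the receptor-regulated SMADs, Smad3 (ENSMUSG00000032402; chr9:63646767-63757994, minus strand, GRCm38) read 592, 622, 621 and 633 in NA1 to NA4, and 556, 526, 667 and 552 in WT1 to WT4. WT3 was the highest library of all, and the groups overlapped. The means were 617 ± 17.6 in NA and 575 ± 62.8 in WT (SD, n = 4), a log2 change of 0.11 with a 95% interval of -0.10 to 0.32. Smad2 (ENSMUSG00000024563; chr18:76241580-76310963, plus strand, GRCm38) read 267, 315, 282 and 325 in NA1 to NA4, and 358, 282, 340.4 and 281 in WT1 to WT4. Its groups overlapped as well, with WT1 highest and NA1 lowest. The means were 297 ± 27.3 and 315 ± 39.5 (SD, n = 4), and the log2 change of -0.08 had a 95% interval of -0.35 to 0.19. Neither Smad2 nor Smad3 passed the test, with adjusted p of 0.683 and 0.482 (limma).

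Smad4 (ENSMUSG00000024515; chr18:73639009-73703780, minus strand, GRCm38), the shared partner of the receptor-regulated SMADs of both the TGF-beta and the BMP branch, read 341, 611, 602 and 607 in NA1 to NA4, and 160, 249, 116 and 174 in WT1 to WT4. The groups did not overlap. NA1 stood well below the other 3 NA libraries, which lay within 602 to 611, yet above the highest WT library, WT2. The mean rose from 175 ± 55.4 in WT to 540.2 ± 133 in NA (SD, n = 4). The log2 change was 1.64 with a standard error of 0.22, a 95% interval of 1.16 to 2.11 and an adjusted p of 0.000253 (limma). By p, Smad4 ranked 151 of 11451 genes, and 2.09% of the tested genes had a log2 change at least as large in either direction. Smad4 was called under all 19 alternatives run, with log2 changes from 1.46 to 1.84, and without NA4 and WT4 the change was 1.58 with an adjusted p of 0.00539.

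The inhibitory Smad7 (ENSMUSG00000025880; chr18:75367529-75395935, plus strand, GRCm38) read 79.3, 136, 191 and 138 in NA1 to NA4, and 87.0, 216, 94.5 and 126 in WT1 to WT4. The groups overlapped over nearly their whole range, with NA1 the lowest library and WT2 the highest. The highest library was 2.41 times the lowest in NA and 2.49 times in WT. The means were 136 ± 45.7 and 131 ± 59.4 (SD, n = 4), and the log2 change of 0.09 had a 95% interval from -0.54 to 0.71, wide enough to hold a change in either direction (adjusted p 0.868, limma). A difference in Smad7, a transcript that the pathway induces, was not detectable at this spread.

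Skil (ENSMUSG00000027660; chr3:31095058-31122577, plus strand, GRCm38), a corepressor that binds SMAD complexes, read 221, 670.2, 900.2 and 592 in NA1 to NA4, and 54.1, 292, 108 and 126 in WT1 to WT4. The overlap was limited to a single pair, with WT2 above NA1. The spread within a group was wide, the highest library being 4.07 times the lowest in NA and 5.40 times in WT. The means were 596 ± 282 in NA and 145 ± 103 in WT (SD, n = 4). The log2 change was 2.12 with a standard error of 0.44, a 95% interval of 1.17 to 3.06 and an adjusted p of 0.00509 (limma). Of all tested genes, 1.004% had a log2 change at least as large in either direction. Skil was called under all 19 alternatives run, with log2 changes from 1.74 to 2.54 and adjusted p up to 0.0457, and it had an adjusted p of 0.0401 without NA4 and WT4 (log2 change 2.08).

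Ski (ENSMUSG00000029050; chr4:155154075-155222592, minus strand, GRCm38), the close relative of Skil, read 288, 356, 248 and 286 in NA1 to NA4, and 253, 245, 197 and 224 in WT1 to WT4. The groups overlapped at NA3 and WT1. The means were 295 ± 44.9 and 229.6 ± 24.99 (SD, n = 4), a log2 change of 0.35 (95% interval 0.06 to 0.65) that missed the threshold after adjustment (adjusted p 0.0912, limma). It passed without NA3 (0.43, adjusted p 0.0452) and once the GC trend was removed (0.48, adjusted p 0.0385).

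Tgif1 (ENSMUSG00000047407; chr17:70844205-70853546, minus strand, GRCm38), a homeodomain corepressor of SMAD2 and SMAD3, read 600.2, 887, 732 and 708 in NA1 to NA4, and 608, 851, 655 and 679 in WT1 to WT4. The groups overlapped over most of their range, and the second library was the highest of each group. The means were 732 ± 119 and 698 ± 106 (SD, n = 4), and the log2 change of 0.07 (95% interval -0.21 to 0.34) did not pass the test (adjusted p 0.760, limma). Of the 3 corepressors, Skil alone was called, and the difference between the changes of Skil, Ski and Tgif1 was not tested.

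**Figure D2:**
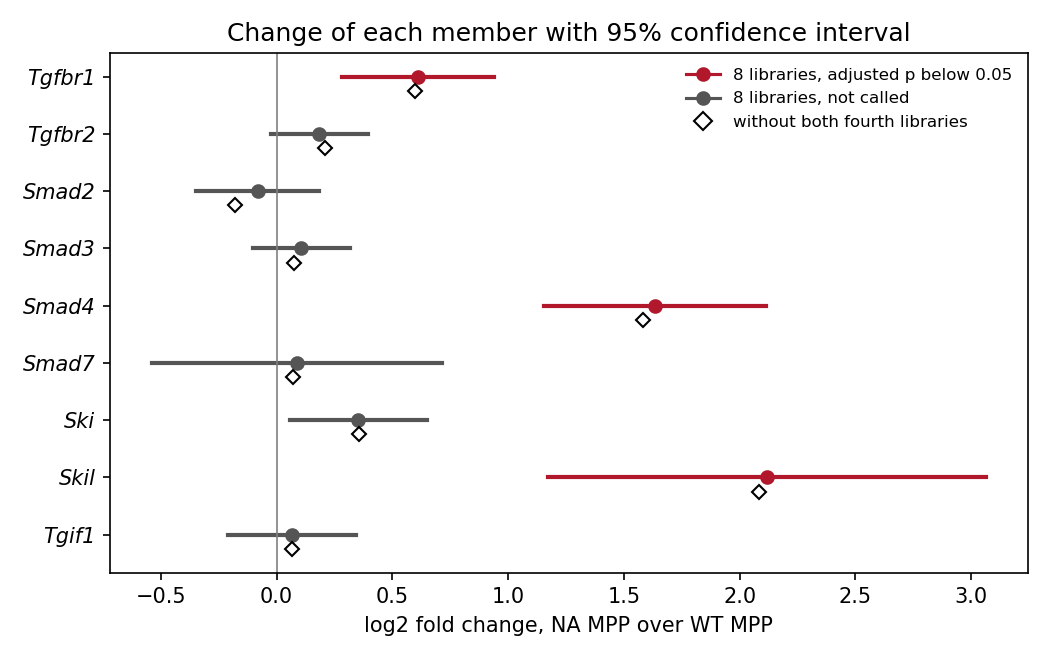
The log2 fold change of NA over WT MPPs on the horizontal axis for the 9 tested members, with bars for the 95% confidence interval from limma over 8 libraries (red, adjusted p below 0.05) and open diamonds for the value without NA4 and WT4. The intervals of Smad4 and Skil lie above 1, and every diamond lies within its interval.

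Over all tested genes, the 4 NA values and the 4 WT values did not overlap for 22.0%, and lay with NA above WT for 11.5%. Among the 9 members, 3 did so, all with NA above WT, namely Tgfbr1, Tgfbr2 and Smad4. Without NA4 and WT4, Smad4 and Skil were called, 2 of 9 members and both as higher, against 4.63% of all genes tested on those 6 libraries (3.33% higher and 1.3% lower). Over 8 libraries, the called members with a log2 change of at least 1 were the same 2, beside 2.93% of all genes called higher by that size.

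For a comparison between genes, values were divided by summed exon length. In WT MPPs the highest levels per kilobase were those of Tgif1 and Smad3, at 124 ± 18.8 and 104 ± 11.3 normalised counts per kilobase (SD, n = 4). Tgfbr2, Smad4, Ski, Smad2, Tgfbr1, Smad7 and Skil followed, from 53.6 ± 3.20 down to 15.0 ± 10.6, and Tgfb1 came last at 0.437 ± 0.615. In that order only Smad3 and Tgfbr2, and Skil and Tgfb1, were neighbours whose libraries did not overlap. In NA MPPs the order by mean was Smad4 (145.5 ± 35.8), Tgif1 (130.1 ± 21.1), Smad3 (111 ± 3.18), Skil (61.5 ± 29.1), Tgfbr2 (60.9 ± 3.92), Ski, Tgfbr1, Smad2, Smad7 and Tgfb1. Here the libraries of Smad3 and Skil, and of Smad7 and Tgfb1, did not overlap, and all other neighbours did. By mean level per kilobase of summed exons, Smad4 lay below Tgif1, Smad3 and Tgfbr2 in WT and above every other member in NA, and Skil lay above Tgfb1 alone in WT and below Smad4, Tgif1 and Smad3 in NA. By length of the longest transcript instead, Tgif1 came first in NA (233 against 159.6 for Smad4), so the place of Smad4 at the top depends on the length used.

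Immediate early genes, which switch on within minutes of a stimulus or of tissue handling, were tallied beside the inducible members. Of 21 tested genes of that list, 13 were higher in NA MPPs and 0 lower by limma (18 and 0 at an unadjusted p below 0.05; 7 of the 13 without NA4 and WT4, on which 4.63% of all genes were called), a share of 61.9% called against 17.9% of all genes. At the unadjusted threshold 16.9% of all genes were higher and 15.6% lower. The 13 were Fos, Fosb, Jun, Junb, Jund, Egr1, Egr2, Ier2, Ier5, Dusp1, Zfp36, Btg2 and Klf6. The summed normalised count of all 25 listed genes, called or not, was 48960, 53260, 58590 and 50050 in NA1 to NA4, and 8688, 25300, 22090 and 15790 in WT1 to WT4. Every NA library was above every WT library on this sum. Fos was the largest single part of the sum in NA, at 19680 to 21300, and read 804 to 3154 in WT. Of the 21 tested genes, 10 did not overlap between the groups, beside 22.0% of all tested genes. Nr4a1, Klf2, Ier3, Dusp2 and Socs3 were among those that overlapped. Within NA the order of the 4 libraries by Skil was that of the sum, NA1 lowest and NA3 highest. In WT, WT1 was lowest and WT2 highest on both measures. Smad7 followed part of the same order, with NA1 and WT1 lowest and NA3 and WT2 highest in their groups, with group means of 136 and 131. For Smad4, NA1 and NA2 were the lowest and highest of NA, and WT3 and WT2 of WT. The part of these genes in the values of Skil and Smad4 was not tested.

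**Figure D3:**
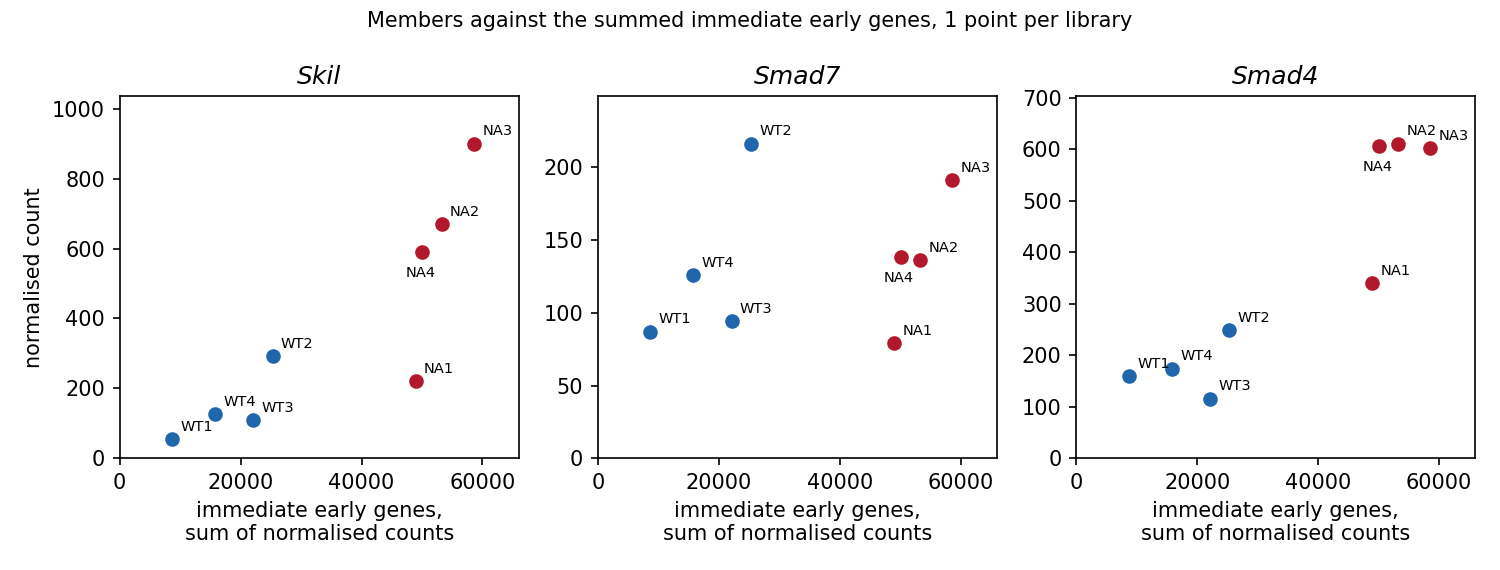
Normalised counts of Skil, Smad7 and Smad4 (vertical axes) against the summed normalised count of 25 immediate early genes (horizontal axes), 1 point per library, red NA and blue WT. NA libraries lie at 48960 or more on the horizontal axis and WT libraries at 25300 or less; Skil is lowest in WT1 and NA1 within their groups.

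Several defining markers of cells outside the gate were not detected. The T cell genes Cd3d, Cd3e, Cd3g, Cd8a and Trac, the neutrophil genes Elane and Ly6g, the erythroid gene Alas2 and the B cell genes Ms4a1, Pax5, Igll1 and Cd22 were listed at 0 in all 8 libraries. Other genes of these lists were present. The B cell gene Cd79b read 87.4 to 219 in NA and 176.5 to 256 in WT. The T cell gene Lck read 112 to 186.5 in NA and 162 to 294 in WT. The neutrophil genes S100a9, Ngp and Camp were highest in WT3, at 158, 53.5 and 39.85. The stromal gene Cxcl12 was highest in NA3, at 100.6. The summed platelet and megakaryocyte markers overlapped, at 307 to 374 in NA and 318 to 369 in WT, with 0 of 7 tested genes called by limma and 0 at an unadjusted p below 0.05. The summed erythroid markers were lower in NA (43.7 to 72.4) than in WT (165 to 306), with Hbb-bt, the 1 tested gene of 10, called lower. The summed neutrophil markers were lower as well (1390.0 to 1709 against 1754 to 2638), with Mpo and Prtn3 called lower of 4 tested (3 lower at an unadjusted p below 0.05). Prtn3, which progenitors also express, made up most of that sum (1371 to 1677 in NA and 1711 to 2291 in WT). The monocyte and macrophage sum was 1723 to 1803 in NA and 1840.0 to 2139 in WT, with 0 of 3 tested genes called by limma and 2 lower at an unadjusted p below 0.05, and Lyz2 made up most of it (1652 to 1761 in NA and 1719 to 2019 in WT). The sums of B cell (101 to 239 and 182 to 269), T cell (116 to 213 and 191 to 305) and stromal and endothelial markers (168 to 329.6 and 158 to 206) overlapped between NA and WT, and of their 6 tested genes Lck alone was called, as lower. At an unadjusted p below 0.05, 2 of 2 tested T cell genes were lower. Of 3 stromal and endothelial genes, 1 was higher and 1 lower, and the 1 B cell gene did not pass. Beside these counts, 17.9% of all tested genes were called, 10.1% as higher and 7.87% as lower (16.9% and 15.6% unadjusted). For 22.0% of all tested genes the NA and WT values did not overlap. Cd48, on which the cells were sorted as negative, was called lower, from 56.1 in WT to 17.7 in NA, and so was Ly6a. The part of these markers in the member values was not tested.

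The other genes of the pathway were counted in 6 lists, 113 genes in all, of which 81 were tested. Of these, 19 were higher in NA MPPs and 4 lower, 28.4% called against 17.9% of all genes, with a median log2 change of 0.19. All 23 kept their sign under every alternative run, but 6 (Thbs1, Smad1, Rock1, Klf10, Jun and Myc) remained called without NA4 and WT4, and the same 6 were called under every alternative. The other 17 had adjusted p of 0.0584 to 0.301 without NA4 and WT4. Of these, 11 were not called without NA4 alone (Eng, Id2, Id3, Junb, Ncor1, Nedd4l, Rhoa, Rock2, Trim33, Usp9x and Zeb2), and 12 were lost for at least 1 library left out, Gadd45b being the further one, with highest adjusted p between 0.05002 and 0.140.

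Among ligands and the genes that release or bind them, 10 of 29 were tested. By limma 2 were higher and 2 lower (2 and 2 at an unadjusted p below 0.05). Of all genes 10.1% were called higher and 7.87% lower (16.9% and 15.6% unadjusted). Thbs1, an activator of latent TGF-beta, fell from 297 ± 134 in WT to 63.4 ± 26.4 in NA (SD, n = 4; log2 change -2.22, adjusted p 0.000556, limma). Its NA libraries ranged from 29.9 to 92.3 and its WT libraries from 169 to 479. Nrros, which anchors latent TGF-beta on myeloid cells, fell from 1515 ± 94.5 to 1106 ± 198 (log2 change -0.47, adjusted p 0.0107). Itgav, the integrin alpha-v chain that takes part in activation, rose from 164 ± 22.1 to 284 ± 55.0 (0.78, adjusted p 0.00417), and Fstl1, a secreted follistatin-like protein, rose from 205 ± 20.01 to 309 ± 32.3 (0.59, adjusted p 0.00621).

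Of the family receptors beside Tgfbr1 and Tgfbr2, 9 of 14 were tested, with 0 higher and 1 lower by limma (0 and 2 at an unadjusted p below 0.05), beside 10.1% and 7.87% of all genes (16.9% and 15.6% unadjusted). Eng, the co-receptor endoglin, fell from 501 ± 52.4 to 375 ± 29.5 (log2 change -0.42, adjusted p 0.0185), a call that was lost under 5 of 19 alternatives, without NA4, without WT2, without NA4 and WT4, without the variance trend and with the GC trend removed (log2 changes from -0.49 to -0.26, adjusted p up to 0.0920). The co-receptor Tgfbr3 read 182 ± 28.1 in NA and 143 ± 21.8 in WT (0.35, adjusted p 0.174). The activin receptor Acvr2a (52.0 and 62.2) and the BMP receptor Bmpr2 (11.9 and 12.1) did not pass, and the activin type I receptor Acvr1b stayed under the minimum, at 9.77 or less.

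Of the remaining SMADs, Smad1, a receptor-regulated SMAD of the BMP branch, read 220.3, 355, 324 and 403 in NA1 to NA4, and 184, 128, 141 and 169.6 in WT1 to WT4. The groups did not overlap, and as for Smad4 the lowest NA library was NA1. The mean rose from 156 ± 25.6 to 326 ± 77.3 (SD, n = 4; log2 change 1.04, adjusted p 0.00170, limma), and the call held without NA4 and WT4 (0.97, adjusted p 0.0251). Smad5, of the same branch, read 998 ± 40.6 in NA and 933 ± 128 in WT and did not pass (0.11, adjusted p 0.496). The inhibitory Smad6 was low, at 17.1 ± 4.90 and 27.0 ± 5.80 (-0.64, adjusted p 0.225), and Smad9 was listed at 0 in every library.

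SMAD regulators and cofactors gave 4 higher and 1 lower of 29 tested, a share of 17.2% beside 17.9% of all genes. Zeb2, a SMAD-binding repressor, rose from 93.6 ± 11.2 to 166 ± 36.6 (log2 change 0.80, adjusted p 0.0104). Usp9x and Trim33, a deubiquitinase and a ubiquitin ligase that act on SMAD4, rose by 0.47 and 0.33 on the log2 scale (adjusted p 0.0128 and 0.0414), and the corepressor Ncor1 rose by 0.30 (adjusted p 0.0317). Usp9x lies on the X chromosome, and the sex of the donors cannot be told apart from the genotype. Nedd4l, a ubiquitin ligase for activated SMAD2 and SMAD3, fell from 120.5 ± 18.3 to 78.1 ± 10.7 (log2 change -0.62, adjusted p 0.0361). Trim33 was not called under 10 of 19 alternatives, and Nedd4l under 8 of 19.

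The genes of the non-SMAD branch, kinases with their adaptors and the GTPase RhoA, gave 4 higher and 0 lower of 13 tested by limma (4 and 2 at an unadjusted p below 0.05), beside 10.1% and 7.87% of all genes (16.9% and 15.6% unadjusted). Rock1, a kinase downstream of RhoA, rose from 559 ± 85.3 to 861 ± 118 (log2 change 0.62, adjusted p 0.00373), beside Rock2 (0.46, adjusted p 0.0141), the JNK gene Mapk8 (0.53, adjusted p 0.0113) and Rhoa (0.40, adjusted p 0.0472), which was not called under 14 of 19 alternatives. With the GC trend removed neither Mapk8 nor Rock2 was called, and Rock2 was also lost without the variance trend. Over all alternatives their log2 changes ranged from 0.37 to 0.60 and from 0.31 to 0.53, with adjusted p up to 0.0827 and 0.142.

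Transcripts known to respond to TGF-beta in other cells gave 8 higher and 0 lower of 18 tested by limma (12 and 0 at an unadjusted p below 0.05), beside 10.1% and 7.87% of all genes (16.9% and 15.6% unadjusted), with a median log2 change of 1.07. Without NA4 and WT4, 3 of the 8 were still called (Jun, Klf10 and Myc). Klf10, an early TGF-beta response gene, rose from 284 ± 11.6 to 468 ± 52.9 (log2 change 0.71, adjusted p 0.000683), and Itgb5, an integrin chain, rose from 181 ± 14.8 to 280.3 ± 31.7 (0.63, adjusted p 0.00485). Id2 and Id3, inhibitors of basic helix-loop-helix factors and classic BMP targets, rose by 1.12 and 3.05 on the log2 scale (adjusted p 0.0175 and 0.0187), although Id3 was low in WT, at 16.9 ± 17.7. Id3 read 0 in WT1, and the ratio of its group means was 4.81, a smaller change than the log2 value gives. Myc, which TGF-beta is known to repress in epithelial cells, rose from 362 ± 119 to 726 ± 116 (1.04, adjusted p 0.00185). Gadd45b rose from 64.2 ± 20.9 to 143 ± 66.3 (1.10, adjusted p 0.0180). Jun and Junb, which are also on the immediate early list with Atf3, rose by 1.17 and 0.99 on the log2 scale (adjusted p 0.00210 and 0.0476), and Junb was not called under 12 of 19 alternatives. The responsive and the immediate early lists thus share 3 genes.

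**Figure D4:**
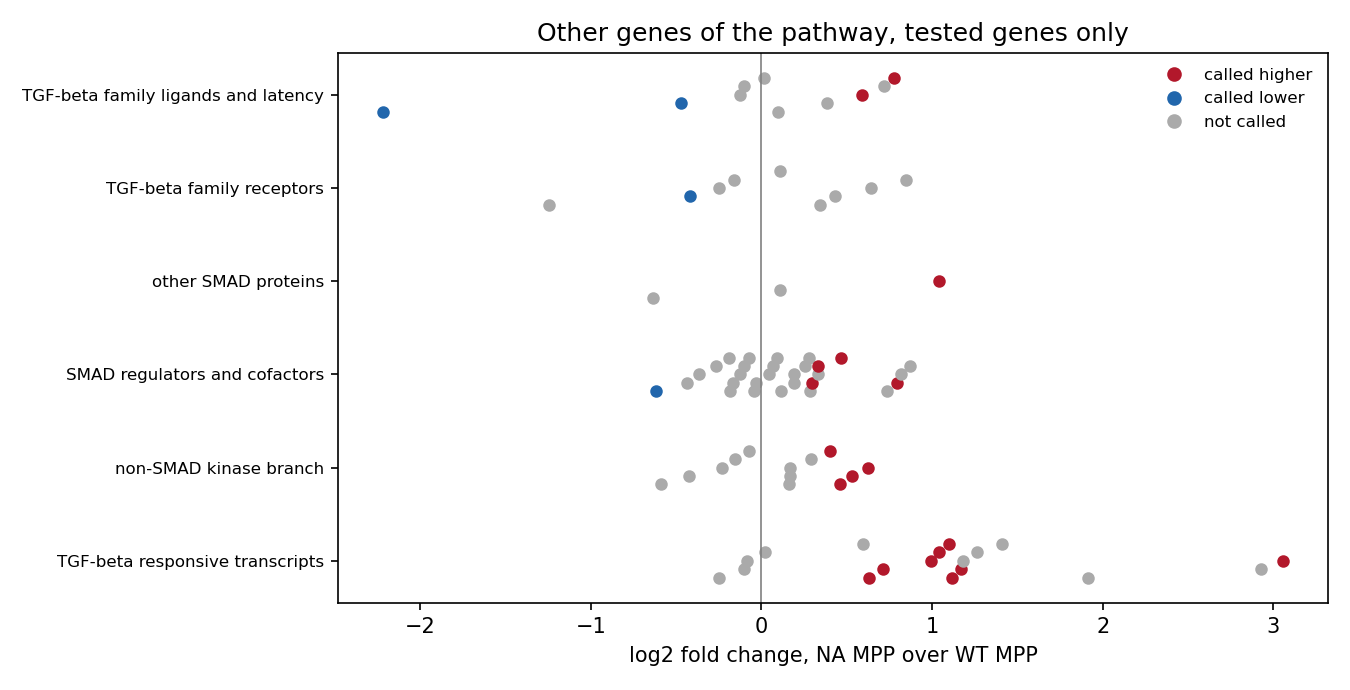
The log2 fold change of NA over WT MPPs (horizontal axis) of the 81 tested genes in 6 lists of the pathway, 1 point per gene, red called higher, blue called lower and grey not called by limma over 8 libraries; vertical offsets within a list only separate points. The responsive transcripts lie furthest to the right as a list, with a median of 1.07, and Thbs1 is the point furthest to the left.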

How the data were processed

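RNA was sequenced from 4 NA and 4 WT MPP libraries, grouped by sample title. Per the labels the authors used RSEM, DESeq2 and mm10; versions, annotation and strand setting are not given in the sources used here. The table that the authors deposited is named as raw, yet it holds a normalised signal, estimated counts from RSEM scaled by a size factor in each library. Low values were whole multiples (within 0.05 reads) of a step of 0.888 to 1.18 for 98.4% to 98.9% of values between 0.5 and 60. Because these are not counts, edgeR and DESeq2 were not run here, and limma 3.58.1 (R 4.3.3) with a mean-variance trend replaced them, on log2(value + 1), two-sided, without covariates, for genes at 10 or more in at least 4 of 8 libraries. Adding 1 shrinks the change of low genes, whereas a library at 0 can enlarge it beside the ratio of group means, as for Id3. Depth, from 3876906 to 4916990 estimated reads, came from the steps and covers counting error only. Symbols, spans and exon lengths were taken from GENCODE M21 (GRCm38), which named 32916 of 37980 rows. No member shared exon bases with another GENCODE gene. Promoters came from RefSeq. All members were named, and of the 6 pathway lists every called gene and a few set beside a member (Tgfbr3, Acvr1b, Acvr2a, Bmpr2, Smad5 and Smad6); Smad9, Tgfb2 and Tgfb3 were named after their values were seen. Members and lists were chosen with earlier results of these data known. The fit was tested on simulated data.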

Additional observations from a re-analysis of the deposited data

Results flagged for a closer look

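In 6 of the 66 groups of 4 libraries examined, 1 library lay far from the other 3 by Dixon's test of its gap over the range of the group, where chance gives about 3.3. For Smad4, NA1 read 341 against 602 to 611 in the other NA libraries. For Tgfb1, WT2 read 6.80 against 0 to 1.14 in the other WT libraries, all near the limit of detection. For Zeb2, WT2 read 77.0 against 97.7 to 101 in the other WT libraries. For Itgb5, WT3 read 203 against 172 to 176 in the other WT libraries. For Id3 and Gadd45b, NA3 stood above the rest, at 125 against 63.9 to 70.01 for Id3 and at 242 against 106 to 116 for Gadd45b.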

How the results depend on the processing

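Of 171 combinations of a tested member and an alternative, 160 kept direction and side of the threshold and 11 did not. Smad4 and Skil were called in every one. Smad7 turned negative without NA3 (-0.097), without WT1 (-0.076) and without WT3 (-0.037), and reached 0.36 without WT2. Tgif1 turned negative under total-count scaling (-0.0032), without NA2 (-0.032) and with the GC trend removed (-0.032), and reached 0.16 without WT2. Neither was called in any. Leaving out 1 library gave 2 to 4 called members, 1106 to 2141 called genes in all (1106 without NA4, 1294 without WT4) and 12 to 24 called pathway genes (12 without NA4). Without NA4 and WT4 515 genes and 6 pathway genes were called, and without the variance trend 14 pathway genes; the first has fewer samples, and the cause was not tested. Total-count scaling gave 925 higher and 1314 lower genes, against 1152 and 901, and 15 and 7 pathway genes, against 19 and 4. Whether the replicate numbers pair the libraries was not settled. Deviations of same-numbered libraries correlated weakly, at 0.0874, 0.0271, 0.0131 and 0.158 over 11451 genes. NA1 and NA4, but not NA2 and NA3, correlated best with the WT library of their number. A fit with the replicate number as a block gave 2004 called genes, 3 members and 27 pathway genes. In that fit the standard error of Skil was 0.23, against 0.44 without the block. The edgeR and DESeq2 alternatives were not run. Depth limits Tgfb1, at 8 estimated reads per group.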
